A study of Mus musculus with 6 samples.

Results

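The genes described here encode the machinery of protein entry, folding and early transport in the secretory pathway, measured in intestinal crypts from the ileum, the stretch of small bowel next to the colon. Members were taken by gene name from the deposited expression table: components of the translocation channel and its targeting particle, signal peptidase, oligosaccharyltransferase, lumenal chaperones and disulphide isomerases, DnaJ proteins of the B and C classes, the coats COPII and COPI, cargo and retrieval receptors, and 5 sensors and transcription factors of the unfolded protein response. The rule found 76 members among 7120 listed genes. It goes by name, and so also took in Ssrp1, a chromatin protein of the FACT complex, and DnaJ proteins that work outside the endoplasmic reticulum (ER).

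The libraries came from 3-month-old C57BL/6 mice of 2 genotypes, Tl1a-transgenic (Tl1a-tg) and wild-type (WT), with 3 libraries each. Crypts were cut by laser microdissection from methacarn-fixed, paraffin-embedded ileum and turned into stranded mRNA-seq libraries. TL1A, the product of Tnfsf15, is a TNF family cytokine. The sources used here give neither the transgene's promoter nor the number of mice behind the libraries, so p-values may measure technical spread alone.

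Secretory proteins enter the ER through the Sec61 channel while they are being made. There they lose their signal peptide, receive sugar chains, and are folded by chaperones. Folded cargo leaves in COPII vesicles, and COPI vesicles return escaped ER residents that KDEL receptors have bound. When unfolded protein builds up, the sensors IRE1 (Ern1), PERK and ATF6 switch on genes of this machinery. Paneth and goblet cells, the secretory cells of the crypt, depend on it to make antimicrobial proteins and mucin, and IRE1 activates XBP1 by splicing its mRNA.

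The deposited values of a genotype's 3 libraries are 1 fitted mean times a library factor, so they hold no spread and no SD can be given. A fitted mean may therefore rest on reads of 1 library, which the values cannot show. Levels below are fitted means in reads per library at a common depth. They are not scaled by gene length, so they are compared between genotypes and not between genes. Log2 fold changes (Tl1a-tg over WT), standard errors and p-values are those of the authors' deposited table, made with DESeq2. A value at the floor of the fit, 0.193 in Tl1a-tg crypts and 0.176 in WT, or below 0.01, was read as a genotype without reads. Summed deposited signal, which is not a read depth, ran from 376022 to 530625 in Tl1a-tg libraries and from 314186 to 774249 in WT libraries. Members took 0.725% of it in Tl1a-tg crypts and 0.810% in WT. Tnfsf15 itself was fitted below 0.01 in both genotypes, so it could not be used to check the labels.

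Defining markers of crypts were present. The 6 Paneth cell markers were read in both genotypes, with summed fitted means of 28236 in Tl1a-tg crypts and 32716 in WT. Of 6 goblet cell markers 3 were listed, and the mucin Muc2 contributed most of their sums of 12739 and 13391. Agr2 had 186 in Tl1a-tg crypts and no reads in WT, and Fcgbp had none in Tl1a-tg crypts and 1.08 in WT. Absorptive markers summed to 220.1 in Tl1a-tg crypts and 58.5 in WT. Plasma cells are another cell type rich in ER. Of 8 plasma and B cell markers 3 were listed, with sums of 78.5 in Tl1a-tg crypts and 1.29 in WT. Sdc1 made up most of the Tl1a-tg sum, while Mzb1, an ER protein of plasma cells, lay at the floor in both genotypes. Stromal markers summed to 200.2 in Tl1a-tg crypts and 54.8 in WT, and T cell markers to 8.63 and 166. Tuft cell markers summed to 24.1 in Tl1a-tg crypts and 212 in WT, and enteroendocrine markers to 29.1 and 114. Stem cell markers summed to 1136 and 969, with Lgr5 alone at 131 in Tl1a-tg crypts and 0.342 in WT. No listed marker of these cell types had an adjusted p below 0.05 by DESeq2 in the authors' deposited table. Only 1662 of the 7120 listed genes have an adjusted p, and how many of the markers do was not counted. The lack of calls therefore does not show that the markers were equal. Cd8b1 (T cell), Trpm5 (tuft) and Chgb (enteroendocrine) had no reads in Tl1a-tg, with 128, 98.6 and 51.4 in WT. Sdc1 and the stromal Col1a1 had none in WT, and Col1a1 had 60.5 in Tl1a-tg. Whether the crypts differed in cell composition was not tested, nor was the part of these markers in the results below.

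The promoters of a few members carry the ER stress element (ERSE), the sequence that ATF6 and XBP1 bind with the factor NF-Y. They are shown because the values of these factors and of their classical targets are described below. Of the 76 members 64 matched a promoter in RefSeq's table for GRCm38.p6, from 250 bases before to 50 bases after the start site. The motif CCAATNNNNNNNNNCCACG was found on either strand in 6 of these 64 (9.38%), against 0.245% of the 5312 listed genes with a promoter in the table. The 19 bases of the motif are in capitals, with 12 bases on each side. On the reverse strand it reads as CGTGG, 9 bases and ATTGG.
Hspa5 (chr2:34772013-34772055, plus strand): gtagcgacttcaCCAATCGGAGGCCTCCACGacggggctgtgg
Hsp90b1, site at 212 bases before the start (chr10:86705626-86705668, minus strand): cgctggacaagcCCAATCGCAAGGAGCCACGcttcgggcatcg
Hsp90b1, site at 107 bases before the start (chr10:86705521-86705563, minus strand): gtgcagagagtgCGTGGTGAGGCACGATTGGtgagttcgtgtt
Calr (chr8:84847063-84847105, minus strand): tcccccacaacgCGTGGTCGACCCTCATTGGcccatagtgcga
Canx (chr11:50325788-50325830, minus strand): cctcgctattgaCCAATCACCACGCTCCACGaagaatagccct
Pdia6 (chr12:17266479-17266521, plus strand): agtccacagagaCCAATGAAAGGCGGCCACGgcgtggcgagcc
Dnajc3 (chr14:118937815-118937857, plus strand): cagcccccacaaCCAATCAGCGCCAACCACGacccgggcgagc

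Hsp90b1 was the one member with 2 such sites, on opposite strands. A match describes the letters of the window and not binding. The shorter ERSE-II motif, ATTGGNCCACG, was found in 1 member, Dnajb11, which had no reads in either genotype. The UPRE core TGACGTGG was found in 5 members (Copb1, Copb2, Dnajc25, Sec16b and Sec24d), or 7.81%, against 1.15% of listed genes.

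Many members, like many of all listed genes, had reads in Tl1a-tg or WT alone. Of the 76 members 26 had a fitted mean of at least 10 in both genotypes and are called measured below. Another 27 reached 10 in Tl1a-tg alone, 9 in WT alone and 14 in neither. The shares were 34.2%, 35.5%, 11.8% and 18.4%, against a background of 19.4%, 32.9%, 17.1% and 30.7% of all listed genes. Members thus reached 10 in both genotypes more often than all listed genes, and the shares for Tl1a-tg alone were close. These differences in share were not tested. Of the 27 members that reached 10 in Tl1a-tg only, 23 (85.2%) had no reads in WT, and of the 9 that reached 10 in WT only, 7 (77.8%) had no reads in Tl1a-tg. Over all listed genes these shares were 76.9% and 72.8%. In bulk crypt samples fewer cells of a type and less RNA per cell cannot be told apart.

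**Figure D1:**
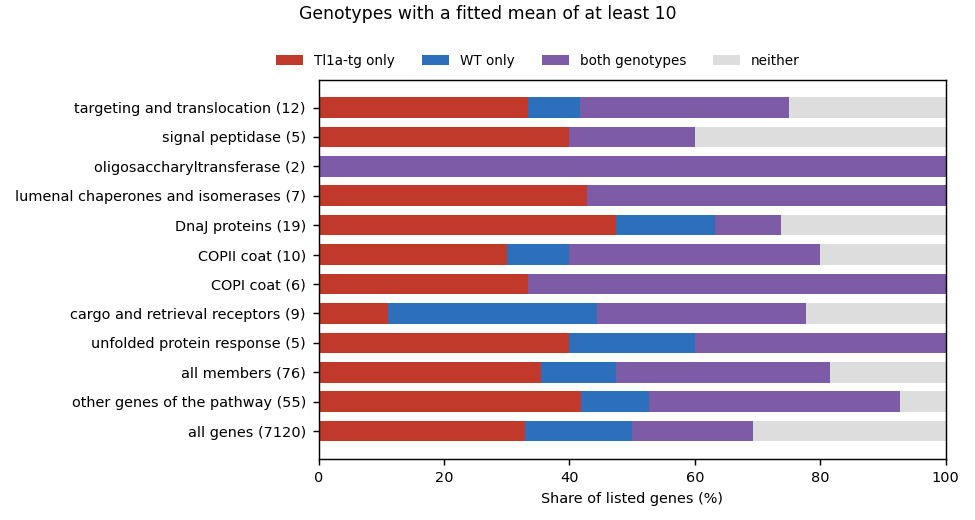
Share of listed genes (%) with a fitted mean of at least 10 in Tl1a-tg only, WT only, both genotypes or neither, by role, with the number of genes in brackets. All 7 lumenal chaperones and isomerases reached 10 in Tl1a-tg, 4 of them in both genotypes, while 3 of the 9 cargo and retrieval receptors reached it in WT only.

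Atf6b and Dnajc13 rose in Tl1a-tg by the authors' adjusted p-values, and no member with an adjusted p was called lower. The 2 calls stand among 31 members with an adjusted p, and of the 1662 genes with one 2.47% were called higher and 1.2% lower in Tl1a-tg (3.67% in either direction). Atf6b encodes a membrane-bound relative of the sensor ATF6. Its deposited signal was 65.3, 71.3 and 50.5 in the 3 Tl1a-tg libraries and below 0.01 in the 3 WT libraries. The groups do not overlap, but the libraries of a genotype differ by their factors alone. Its log2 fold change in the authors' deposited table was 21.11 ± 4.41 (SE; adjusted p = 6.32e-05, DESeq2). Dnajc13 encodes a DnaJ protein of endosomes, outside the ER, with 126, 137 and 97.1 in Tl1a-tg libraries and below 0.01 in WT libraries. Its log2 fold change in the authors' deposited table was 22.09 ± 4.10 (SE; adjusted p = 6.15e-06, DESeq2).

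Both calls rest on the value near 0 fitted to WT. Shrunken by apeglm, the log2 values of the authors' deposited table were 0.20 for Atf6b and 0.23 for Dnajc13. With WT placed at the floor that other genes without reads were given, the log2 fold changes were 8.52 for Atf6b and 9.47 for Dnajc13, and the adjusted p-values became 0.257 and 0.248. Tmed2, a cargo receptor with 130, 142 and 101 in Tl1a-tg libraries, had WT at that floor (0.234, 0.104 and 0.256) and an adjusted p of 0.23 by DESeq2 in the authors' deposited table. Of the 7 members fitted near 0 in 1 genotype, Atf6b and Dnajc13 were the 2 with an adjusted p. The other 5 were Sec24c and Sec11c, near 0 in WT, and Sec62, Dnajc8 and Tmed4, near 0 in Tl1a-tg. The authors gave these 5 no p-value, so they could not be called. The Wald score is the log2 fold change over its standard error. It was 4.74 for Sec24c, 2.98 for Sec11c, -3.29 for Sec62, -5.24 for Dnajc8 and -5.15 for Tmed4. For Dnajc13 and Atf6b it was 5.39 and 4.79.

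An unadjusted p below 0.05 was given for 6 of the 36 members with a p-value, 5 higher and 1 lower in Tl1a-tg, against 14.6% of the 2580 genes with one (10.7% higher and 3.91% lower). Beside Atf6b, Dnajc13 and Tmed2 these were Pdia3 and Copz1, with higher values in Tl1a-tg, and Tmed3, with higher values in WT. All 6 had a fitted mean below 1 in 1 genotype. For the 4 without a call, the authors' deposited table gives an adjusted p of 0.23 by DESeq2.

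**Figure D2:**
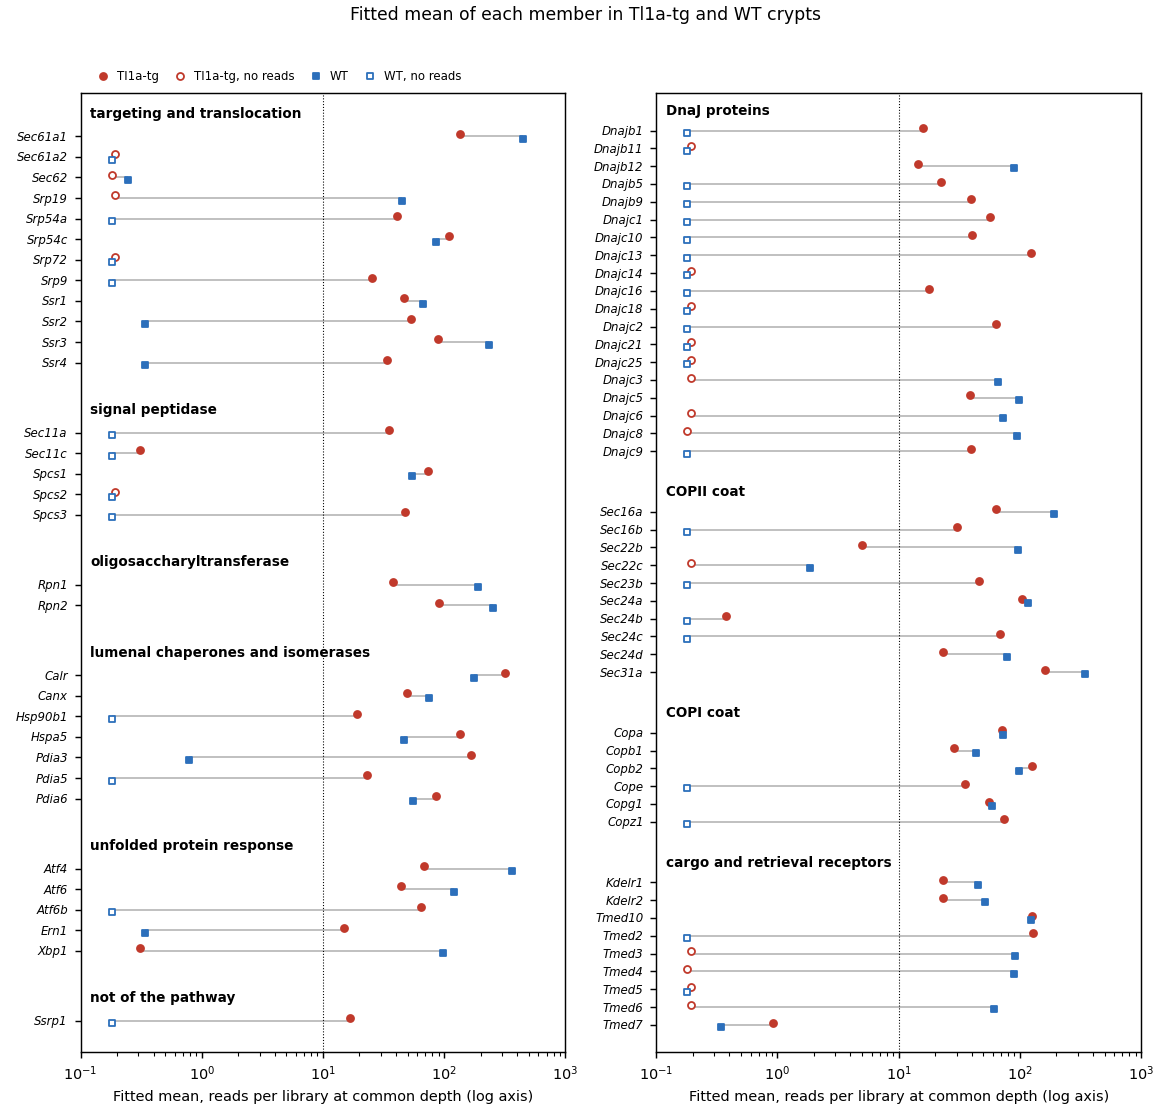
Fitted mean of each of the 76 members (log axis, reads per library at common depth) in Tl1a-tg (circles) and WT (squares), by role; open symbols are genotypes without reads, drawn at 0.18 where the value was lower. The dotted line marks the limit of 10, and 23 of the 27 members above it in Tl1a-tg only (85.2%, against 76.9% of all genes of that pattern) have an open WT square.

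Of the 26 measured members, 16 had a deposited DESeq2 p-value, with a minimum of 0.403. So 0 of these 16 passed, adjusted or not, against 3.67% and 14.6% of all genes tested. Calls among the 1379 genes measured in both were not counted. The log2 fold change was above 0 in 7 of the 26 and below 0 in 19. A negative sign was found in 73.1% of the measured members, against 62.9% of the 1379 genes measured in both. Members had a median log2 fold change of -0.79 and those 1379 genes of -0.38. With a minimum of 50 in each genotype the medians were -0.11 over 15 members and -0.13 over 671 genes. The fitted means differed by 2-fold or more in 13 measured members, 1 higher in Tl1a-tg (Hspa5) and 12 higher in WT, against 12.5% and 32.7% of all measured genes.

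The standard errors set what could be seen. Their median over the measured members was 3.79 on the log2 scale. The smallest for any member, 2.38 for Sec61a1, gives a 95% half-width of 4.67, or 25.4-fold, and smaller differences were not detectable. The dispersion behind the standard error lay at a ceiling of 13 for 47 members (61.8%) and 75.9% of all listed genes, and such standard errors do not estimate a measured spread.

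**Figure D3:**
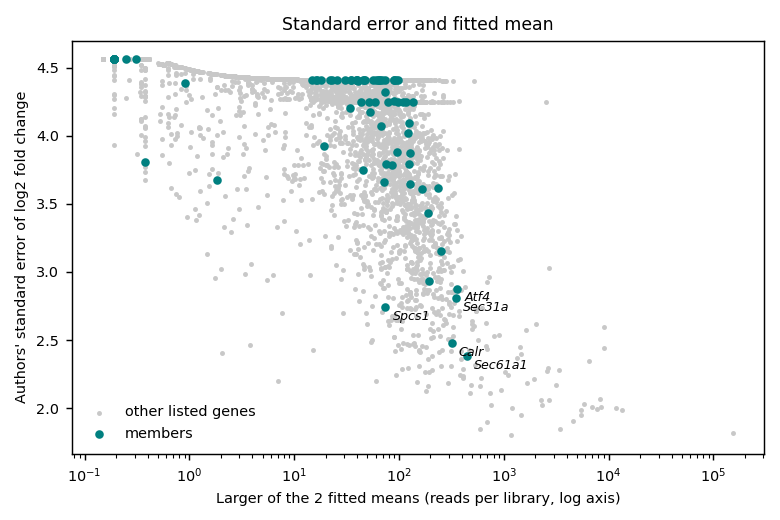
Authors' standard error of the log2 fold change against the larger of the 2 fitted means (log axis) for each member (green) and each other listed gene (grey). Sec61a1, at 2.38, and Calr, at 2.48, lie lowest among the members, and bands of genes at the dispersion ceiling run along 4.25, 4.41 and 4.56.

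Targeting and translocation genes had a summed fitted mean of 535 in Tl1a-tg crypts and 883 in WT over 12 members, 4 of them measured. Sec61a1, the pore subunit of the channel, had deposited signal of 137, 150 and 106 in Tl1a-tg libraries and 598, 265 and 652 in WT libraries. The groups do not overlap, which the fit fixes and which says nothing of replicates. At common depth it had 136 in Tl1a-tg crypts and 447 in WT, a log2 fold change of -1.72 (95% interval -6.39 to 2.95) in the authors' deposited table. The 4 listed subunits of the translocon-associated protein complex, which assists entry of some proteins, had unequal values. Ssr3 had 88.3 in Tl1a-tg crypts and 236 in WT, and Ssr1 had 46.8 and 67.0. Ssr2 had 53.3 in Tl1a-tg crypts and 0.342 in WT, and Ssr4 had 33.9 and 0.342.

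The signal recognition particle, which brings ribosomes to the channel, was read in part. Srp54c, encoding its signal-binding subunit, had 110 in Tl1a-tg crypts and 85.6 in WT, and its near copy Srp54a had 40.9 in Tl1a-tg crypts and no reads in WT. Reads of near-identical copies can be split between them, so these values are uncertain one by one. Srp9 had 25.4 in Tl1a-tg crypts and no reads in WT, whereas Srp19 had no reads in Tl1a-tg crypts and 45.2 in WT. Srp72 and the second pore gene Sec61a2 had no reads in either genotype, and Sec62, a channel partner, had none in Tl1a-tg crypts and 0.247 in WT.

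Signal peptidase genes summed to 157 in Tl1a-tg crypts and 55.1 in WT. Spcs1, an accessory subunit, was measured in both, with 74.2 in Tl1a-tg crypts and 54.6 in WT (log2 fold change 0.44, 95% interval -4.93 to 5.81, in the authors' deposited table). The catalytic subunit Sec11a had 35.0 and the accessory subunit Spcs3 47.5 in Tl1a-tg, both without reads in WT. Spcs2 had no reads in either genotype. The other catalytic subunit, Sec11c, had 0.311 in Tl1a-tg crypts and none in WT.

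Rpn1 and Rpn2, the ribophorin subunits of the oligosaccharyltransferase that puts sugar chains on new proteins, both had lower values in Tl1a-tg. Rpn1 had signal of 37.9, 41.4 and 29.3 in Tl1a-tg libraries and 253, 112 and 276 in WT libraries. At common depth these are 37.6 in Tl1a-tg crypts and 190 in WT, a log2 fold change of -2.34 (95% interval -9.07 to 4.40) in the authors' deposited table. Rpn2 had 90.3 in Tl1a-tg crypts and 253 in WT, with -1.48 (-7.66 to 4.69). Neither passed (adjusted p = 0.999 by DESeq2 for both).

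Lumenal chaperones and isomerases summed to 796 in Tl1a-tg crypts and 354 in WT over 7 members. Hspa5 encodes BiP, the main Hsp70 of the ER and the classical readout of the unfolded protein response. Its signal, 1 fitted mean times library factors, was 137, 149 and 106 in Tl1a-tg libraries and 62.0, 27.5 and 67.7 in WT libraries. At common depth it had 135 in Tl1a-tg crypts and 46.5 in WT, a log2 fold change of 1.54 (95% interval -6.79 to 9.87) in the authors' deposited table, which gives it no p-value. The lectin chaperones, which hold glycoproteins while they fold, had values on either side: calreticulin (Calr) had 318 in Tl1a-tg crypts and 175 in WT, and calnexin (Canx) had 49.1 and 75.5. Hsp90b1, the Hsp90 of the ER, had 19.1 in Tl1a-tg crypts and no reads in WT (adjusted p = 0.305 by DESeq2).

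Of the disulphide isomerases, Pdia3, the partner of the lectin chaperones, had 166 in Tl1a-tg crypts and 0.789 in WT. Its log2 fold change in the authors' deposited table was 7.71 ± 3.61 (SE; p = 0.0326, adjusted p = 0.23, DESeq2). Pdia6 had 85.9 in Tl1a-tg crypts and 55.4 in WT, and Pdia5 had 23.0 in Tl1a-tg crypts and no reads in WT. The 6 genes with an ERSE thus had higher values in Tl1a-tg in 4 cases (Hspa5, Hsp90b1, Calr and Pdia6) and in WT in 2 (Canx and Dnajc3). Hspa5 has no adjusted p, and of the other 5 genes 0 passed, against 3.67% of all genes tested.

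Of the 19 DnaJ proteins, co-chaperones that stimulate Hsp70 partners, 2 were measured in both genotypes, 9 reached 10 in Tl1a-tg alone and 3 in WT alone. Those of the ER that had reads were split between the genotypes. Dnajb9 had 39.7, Dnajc10, a reductase of the ER lumen, 39.9, Dnajc1 56.4 and Dnajc16 17.9 in Tl1a-tg, each without reads in WT. Dnajc3, a BiP partner that also restrains PERK, had no reads in Tl1a-tg crypts and 65.9 in WT (p = 0.0562, adjusted p = 0.247 by DESeq2 in the authors' deposited table). Dnajb12, of the ER membrane, had 14.5 in Tl1a-tg crypts and 89.1 in WT. Outside the ER, Dnajc5, which guards secretory vesicle proteins, had 38.8 in Tl1a-tg crypts and 98.1 in WT. The ribosome-associated Dnajc2 had 63.2 and the histone chaperone Dnajc9 39.3 in Tl1a-tg, without reads in WT. Dnajc8, of the spliceosome, and Dnajc6, which uncoats clathrin vesicles, had no reads in Tl1a-tg, with 94.5 and 72.9 in WT. The cytosolic heat shock gene Dnajb1 had 16.0 and Dnajb5 22.2 in Tl1a-tg, again without reads in WT. The remaining 5, Dnajb11, Dnajc14, Dnajc18, Dnajc21 and Dnajc25, some of them also of the ER, had no reads in either genotype.

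COPII genes summed to 504 in Tl1a-tg crypts and 833 in WT, and the 4 measured members all had a negative log2 fold change. Sec31a, of the outer coat, had 161 in Tl1a-tg crypts and 347 in WT, with -1.11 (95% interval -6.61 to 4.39) in the authors' deposited table. Sec16a, the scaffold of ER exit sites, had 64.1 in Tl1a-tg crypts and 192 in WT, with -1.59 (-7.34 to 4.16). Of the cargo-binding Sec24 proteins, Sec24a had 105 in Tl1a-tg crypts and 117 in WT, Sec24d had 23.0 and 78.9, and Sec24c had 69.0 and none. When the median of all measured genes is set to 0, the sign of Sec24a turns positive (0.22). The inner coat gene Sec23b had 46.2 and the scaffold gene Sec16b 30.3 in Tl1a-tg, without reads in WT. Sec22b, a SNARE protein of ER vesicles, had 4.98 in Tl1a-tg crypts and 95.7 in WT (adjusted p = 0.73 by DESeq2). Sec24b had 0.375 in Tl1a-tg crypts and none in WT, and Sec22c none and 1.85.

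COPI genes, whose coat serves return transport to the ER, summed to 390 in Tl1a-tg crypts and 273 in WT over 6 members, 4 of them measured. Copa had 70.7 in Tl1a-tg crypts and 72.3 in WT, Copg1 55.1 and 59.4, Copb2 126 and 97.7, and Copb1 28.6 and 43.2. Their log2 fold changes ran from -0.60 to 0.37, and the 95% interval of Copa, -7.21 to 7.15, shows how wide the margins were. The signs of Copa and Copg1 turn positive (0.35 and 0.27) when the median of all measured genes is set to 0. The other 2 subunits were read in Tl1a-tg alone, Copz1 with 73.9 (p = 0.0439, adjusted p = 0.23 by DESeq2 in the authors' deposited table) and Cope with 35.1.

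**Figure D4:**
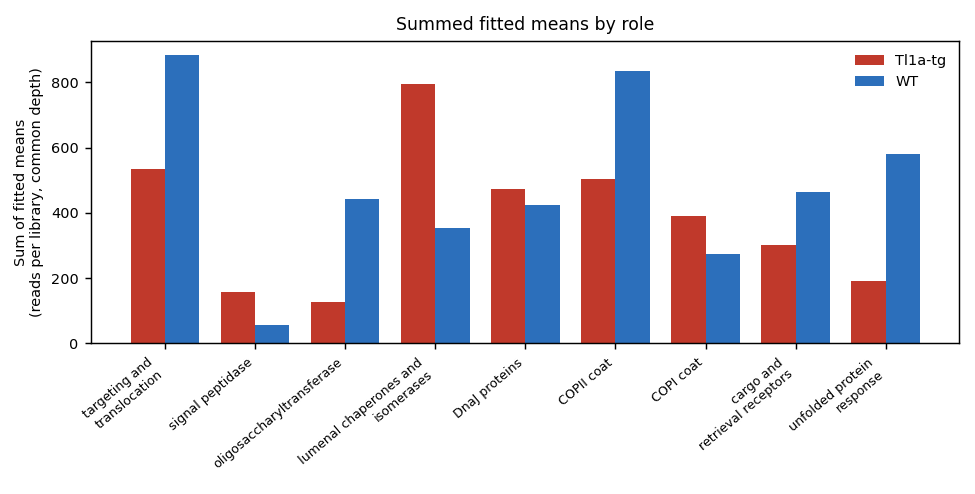
Summed fitted means (reads per library at common depth) of the members of each role in Tl1a-tg (left bars) and WT (right bars); there are no error bars because the deposited values hold no spread between libraries. The sums for chaperones and isomerases are 796 and 354, and those for the unfolded protein response are 192 and 580.

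Among receptors that sort cargo, the p24 family (Tmed) was split between the genotypes. Tmed10 had 126 in Tl1a-tg crypts and 123 in WT. Tmed2, its partner in p24 complexes, had 129 in Tl1a-tg crypts and no reads in WT (log2 fold change 9.52, standard error 3.88, p = 0.0141 by DESeq2 in the authors' deposited table). Tmed3, Tmed4 and Tmed6 had no reads in Tl1a-tg, with 90.4, 90.1 and 60.9 in WT. Tmed3 had p = 0.0441 by DESeq2 in the authors' deposited table. Tmed7 had 0.919 in Tl1a-tg crypts and 0.342 in WT, and Tmed5 had no reads in either genotype. The KDEL receptors, which return chaperones such as BiP to the ER, had 23.0 in Tl1a-tg crypts and 45.0 in WT (Kdelr1) and 23.0 and 51.8 (Kdelr2).

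The 5 sensors and factors of the unfolded protein response did not share a direction. Atf4, the factor that PERK signalling brings up by translation, had signal of 68.9, 75.2 and 53.3 in Tl1a-tg libraries and 483, 214 and 527 in WT libraries. At common depth it had 68.2 in Tl1a-tg crypts and 362 in WT, a log2 fold change of -2.41 (95% interval -8.05 to 3.23, p = 0.403 by DESeq2) in the authors' deposited table. Atf6 had 43.8 in Tl1a-tg crypts and 121 in WT. Xbp1 had 0.315, 0.343 and 0.243 in Tl1a-tg libraries and 129, 57.3 and 141 in WT libraries (p = 0.0603, adjusted p = 0.247 by DESeq2 in the authors' deposited table). Ern1 had 14.8 in Tl1a-tg crypts and 0.342 in WT, and Atf6b had 64.7 and none. The gene of PERK, Eif2ak3, is not a member by the name rule and had no reads in either genotype. These values count mRNA of the gene as a whole and do not show the spliced form of Xbp1 or cleavage of the ATF6 proteins. Ssrp1, outside the pathway, had 16.6 in Tl1a-tg crypts and none in WT.

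**Figure D5:**
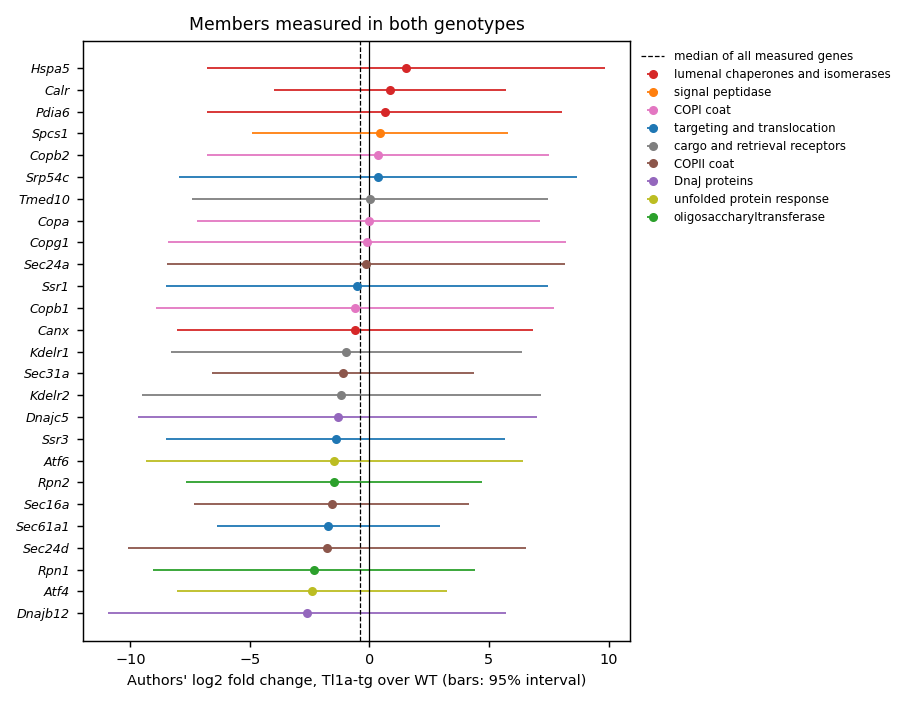
Authors' log2 fold change (Tl1a-tg over WT) with its 95% interval for the 26 members measured in both genotypes, coloured by role. All intervals cross 0; the dashed line marks the median of all measured genes, -0.38.

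A second list of 66 genes of the same pathway that the name rule does not reach was examined in the same way, and 55 were listed. Of these 22 were measured in both (log2 fold change above 0 in 7 and below 0 in 15, median -0.48), 23 reached 10 in Tl1a-tg alone and 6 in WT alone (40%, 41.8% and 10.9%, against 19.4%, 32.9% and 17.1% of all listed genes). Of the 25 with an adjusted p 0 passed in the authors' DESeq2 table, and 5 of the 27 with a p-value had one below 0.05, against 3.67% and 14.6% of all genes tested. Higher in Tl1a-tg were Arf4, a small GTPase that recruits COPI (186 in Tl1a-tg crypts and none in WT), Ern2, the IRE1 of mucous cells (282 and 0.774), Agr2, an isomerase for mucin (186 and none), and Os9, a lectin of ER-associated degradation (80.2 and none). Gbf1, the exchange factor that activates Arf proteins for COPI, had 0.375 in Tl1a-tg crypts and 191 in WT. Genes read well in both included P4hb, the founding disulphide isomerase (374 in Tl1a-tg crypts and 302 in WT), Tmbim6 (249 and 302), Creb3l1, a membrane-bound transcription factor (248 and 106), and Edem1, which directs misfolded glycoproteins to degradation (37.6 and 344).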

How the data were processed

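RNA-seq values of 6 libraries, 3 from Tl1a-tg and 3 from WT crypts, were taken from the tables the authors deposited. Bowtie2 2.1.0, RSEM 1.2.15, DESeq2, FastQC and Trimmomatic are named in the submitters' processing notes, with no role for each. The authors' genome build, annotation and use of strand in counting: not given in the sources used here.

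Per the file headers, the deposited signal is normalized counts. Within a genotype its columns are proportional over all genes (relative range of a ratio at most 1.67e-14), so it holds fitted means, as the deposited log2 fold change and signal also fit each other up to a constant. The signal was divided by library factors with a geometric mean of 1. The authors' deposited tables also give log2 fold changes (default, and shrunken by apeglm), standard errors, a Wald score, and p-values, which were used as they stand. Missing p-values were kept missing. The dispersion was solved from each standard error. Its ceiling of 13 exceeds the 10 usual in the authors' DESeq2 with 6 libraries, so further libraries may have entered their model and its errors.

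Genes were called at an adjusted p below 0.05. Named are members with a p below 0.05, the 4 members of each role with the highest mean, all sensors, and measured members with a 2-fold difference; any other member is given to complete its role, and was chosen with its values known. Of the other pathway genes those with a p below 0.05 and the 4 with the highest mean are named, and Eif2ak3 was added with its values known. Members and lists were chosen with earlier results of these data known. Python 3.11.15, pandas 2.3.3, numpy 2.4.6 and scipy 1.17.1 were used, and the calculations were tested on simulated data. The simulated counts had a dispersion far below the ceiling of 13, so they do not show how well changes are called in these data.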

Additional observations from a re-analysis of the deposited data

Results flagged for a closer look

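For 4 members the deposited mean over libraries, a column the comparisons do not use, was at least 10 and above the fitted means of both genotypes. In the authors' deposited table this mean was 271 for Sec24c (fitted at 69.0 in Tl1a-tg, no reads in WT). It was 38.2 for Dnajb1 (16.0 in Tl1a-tg, no reads in WT), 18.1 for Sec62 (none in Tl1a-tg and 0.247 in WT) and 10.8 for Sec24b (0.375 in Tl1a-tg and none in WT). With no lower limit 16 of the 76 members had such a mean, and 9 of these 16 had no reads in either genotype. Over all listed genes it was 28.8%. On a shared scale, a mean over these 6 libraries alone would lie between the genotypes' values. Other members had a deposited mean below both fitted means, such as Calr (72.0, against 318 in Tl1a-tg and 175 in WT) and Sec61a1 (46.5, against 136 and 447). A gap between deposited and fitted means is thus not particular to the 4 members named. Which libraries held the reads is not shown by the deposited values.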

How the results depend on the processing

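No paired analysis was possible because the deposited signal holds no spread between libraries, and for the same reason no library could be left out in turn. With means near 0 placed at the floor the members called numbered 0 and not 2, and without the DnaJ proteins 1, Atf6b. The log2 fold changes of Atf6b and Dnajc13 were 8.52 and 9.47 at the floor, and 0.20 and 0.23 as shrunken values. At the floor their direction could not turn, because both means in Tl1a-tg lay far above it. The median log2 fold change of the measured members, -0.79, became -0.11 with a minimum of 50, -0.41 with the median of all measured genes set to 0, and -0.0457 with shrunken values. It turned to 0.0290 over 57 members with a mean over both genotypes of at least 10 (0.68 over all 4538 such genes), and to 0.0209 with no minimum and log2 of the fitted mean plus 1 (0.0209 over all genes). The log2 ratio of the members' summed fitted means, -0.30, became -0.16 as a share of the fitted total, a scaling that moves each gene by 0.14, and -0.20 without Sec61a1. Single genes were run for those named by the rule. Among these the sign turned with shrunken values for Copa (0.00691), Copg1 (0.0160), Sec24a (0.00976) and Spcs2 (-0.0291), and with the median of measured genes set to 0 for Copa (0.35), Copg1 (0.27), Sec24a (0.22) and Tmbim6 (0.10). That centring, the measured limits of 5 and 20, the floor for the other pathway genes and leaving out Ssrp1 were added after seeing the data. The 15 other settings of summary values stayed within 1.5 times. Among them, the count of calls with shrunken values rests on the same adjusted p-values, so it could not differ.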

Other observations

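Among the 42 other pathway genes with a promoter in RefSeq's GRCm38.p6 table, 3 (7.14%) held the ERSE motif, given in capitals with 12 bases on each side.
Derl3 (chr10:75893230-75893272, plus strand): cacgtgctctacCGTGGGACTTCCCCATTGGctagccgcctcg
Creld2 (chr15:88819508-88819550, plus strand): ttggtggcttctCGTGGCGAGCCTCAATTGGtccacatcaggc
Syvn1 (chr19:6046520-6046562, plus strand): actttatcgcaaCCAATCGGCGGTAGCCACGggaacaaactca

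Derl3 and Syvn1 belong to ER-associated degradation, and Creld2 is induced by ER stress. Fitted means were 35.4 for Derl3, 30.9 for Creld2 and 25.9 for Syvn1 in Tl1a-tg, and none of the 3 had reads in WT. The authors' deposited table gives them no p-value. Herpud1, whose promoter held the ERSE-II motif, had 30.6 in Tl1a-tg and 71.0 in WT. These genes were named after their values were seen.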
